A study of Mus musculus with 16 samples.

Results

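Cardiomyocytes (CMs) sorted from mouse hearts at embryonic day E15.5 by a high level of surface integrin alpha 6 (ITGA6, CD49f) were compared with CMs sorted in parallel by a low level of it. This comparison used 8 of the 16 arrays of the series, 4 of each sort (samples 2, 3, 6 and 8), chosen by their labels. All 8 came from wild-type CD1 embryos with no transgene, allele or agent, and in all of them the cells were propidium iodide-negative and positive for ERBB-2, a neuregulin co-receptor on the CM surface. The 2 groups are called ITGA6-low and ITGA6-high here. Each array measured a T7-amplified RNA sample of cells from a pool of embryonic hearts, so a group is 4 sorts and not 4 animals, and litter, sex and the position of a cell within a chamber were averaged. The other 8 arrays, of CMs from newborn hearts at P2 (postnatal day 2), lent their spread to the fit. At the gate itself, the Itga6 transcript followed the protein (19.1-fold higher), which is what the sort selected and no finding. A second Itga6 probe, well above background on all 8 arrays, was 1.48-fold higher and not called (adjusted p = 0.072), so the fold depends on the probe read. Of the chamber markers, the atrial Nr2f2 and Myl7 were 23.7-fold and 15-fold higher in ITGA6-high cells. The ventricular Hey2 and Irx4 were 30.8-fold and 4.96-fold lower. The groups did not overlap for any of the 4, as was so for 11.5% of all genes in the higher and 12.2% in the lower direction. Between 38.8% and 41.0% of probes were well above background on the ITGA6-low arrays and 46.5%, 40.9%, 41.8% and 42.8% on the ITGA6-high arrays, and none was saturated. Slide 1 held 2 ITGA6-low and 3 ITGA6-high arrays, and slide 2, scanned on another day, held 2 (samples 3 and 6) and 1 (sample 6).

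Atrial and ventricular CMs arise from different parts of the heart tube. Atrial CMs are held in their state by the orphan nuclear receptors COUP-TFI and COUP-TFII (Nr2f1, Nr2f2), fire with short action potentials, and secrete peptides such as the atrial natriuretic factor. Ventricular CMs, which keep HEY2 and IRX4, pump against a higher load, and their inner layer forms the trabeculae of the embryonic ventricle. The question asked of the arrays was which families of genes, beyond the known chamber markers, differed between the 2 sorts at this stage.

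A probe was called when its adjusted p in the limma fit over all probes was at most 0.05 and its change at least 3-fold, and it passed the test at any fold when the first held, whatever its size. A gene is said to be at background where no array was well above it. Signals are given as normalized intensities of single arrays, always in the order of samples 2, 3, 6 and 8, and a difference is ITGA6-high minus ITGA6-low on the log2 scale. Between the sorts, 654 of 55681 probes (1.17%) were called higher and 253 (0.454%) lower in ITGA6-high cells. With 1 probe per gene, 486 of 24125 genes (2.01%) were called higher and 165 (0.684%) lower, and at any fold 1781 genes (7.38%) were higher and 1365 (5.66%) lower. Among 12615 genes well above background on all arrays of either group, these shares were 3.23% and 1.13% for calls and 12.9% and 10.2% at any fold. A group of 218 genes was well above background on all 4 ITGA6-high arrays and on no ITGA6-low array, against 22 genes the other way. For such genes the fold is a lower bound, set against the dimmest signal the array could separate from background, and is written as "at least". Where some but not all arrays of the dimmer group were well above background, the fold was computed from all 4 values and partly from signals near background. Among others, this was so for Hey2, Aqp3, Kcnj3, Cav1, Adcy1, Npy1r, Fst, Gsg1, Flt1, Fgf7, Adcy4, Dpp6 and Gja4. The median difference over all genes was -0.02. With the slide as a block 535 and 170 genes were called. Within slide 1, 368 and 144 were called, and 336 of the 486 and 121 of the 165 genes were called again. Slide 2 held 1 ITGA6-high array, so its counts of calls are not given. All 486 and 165 genes kept their direction there. Of these, 450 and 161 had no overlap of the groups, as was so for 11.5% and 12.2% of all genes. For them any choice of these arrays gives the same sign, so the kept direction was fixed in advance. Fewer genes passed at any fold within slide 1, 984 and 669, where 5 arrays were compared. Without sample 2 of ITGA6-high, which had the highest share of probes above background, 445 of the 486 genes and 131 of the 165 genes were called again.

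**Figure D1:**
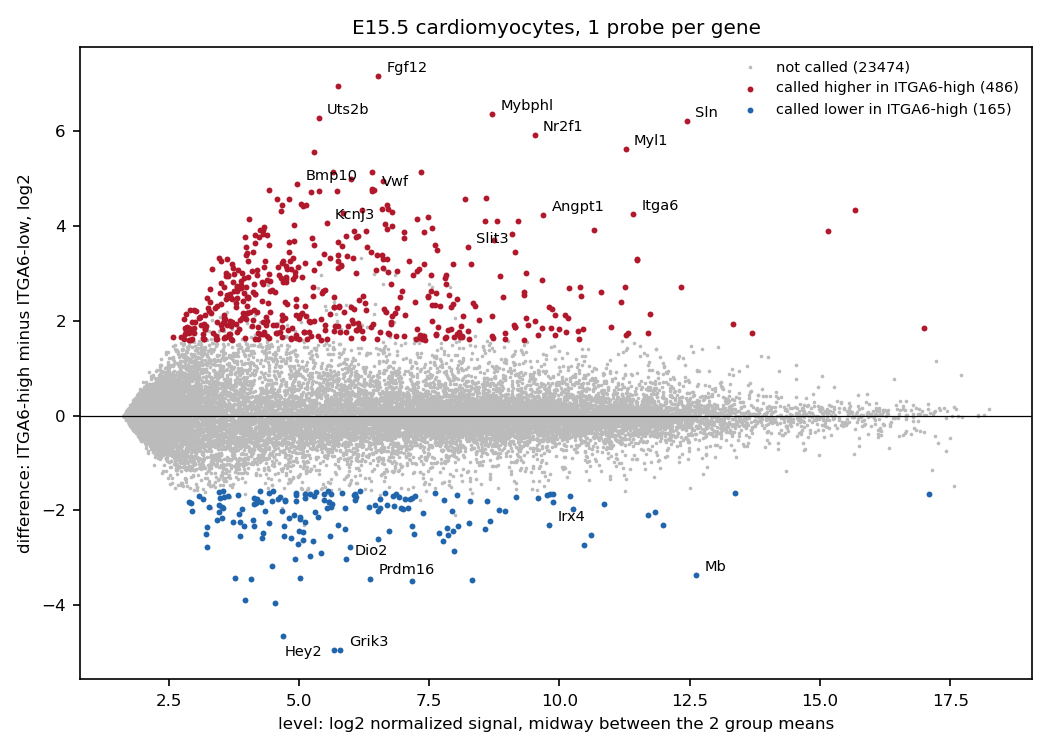
Difference between ITGA6-high and ITGA6-low CMs at E15.5 (vertical axis, log2) against signal level (horizontal axis, log2 normalized intensity) for 24125 genes, 1 point per gene. The 486 genes called higher reach further from 0 than the 165 called lower, and Fgf12 lies highest.

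Before the families, the arrays were examined for markers of other cell types. Of 20 endothelial and endocardial markers, 14 were called higher in ITGA6-high cells and none lower, against 2.01% and 0.684% of all genes. Their summed signal was 2203, 2297, 2905 and 2508 on the ITGA6-low arrays and 7518, 5725, 21612 and 20633 on the ITGA6-high arrays, so that samples 6 and 8 of ITGA6-high stood far above samples 2 and 3. Egfl7, a secreted endothelial protein and the brightest of the list, gave 871, 914, 1127 and 949 against 3965, 2860.4, 7575 and 7739, and the cadherin Cdh5 was not well above background on any ITGA6-low array and reached 77.3, 46, 391 and 333 in ITGA6-high cells. Of the defining markers, Erg was at background on all 8 arrays. Leukocyte markers (2 of 14 called higher, and 10 with the sample number as a block, brightest Csf1r, Cd68 at background throughout) summed to 588, 409, 2579 and 436 against 1225, 785, 13557 and 2032, highest in sample 6 of both sorts. Without ITGA6-low sample 6, 9 leukocyte markers were called higher, without ITGA6-high sample 3, 4 were, and without any 1 of ITGA6-low samples 2 and 3 and ITGA6-high samples 6 and 8, none was. Only 1 was called without ITGA6-low sample 8 or ITGA6-high sample 2. Erythroid markers (0 of 12 called, brightest Hba-a1) were also highest in sample 6 of both sorts, at 31206 and 34727, and Epb42 and Gata1 were at background. Sample 2 of ITGA6-high followed with 17933.

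Markers of the remaining cell types differed less or in the other direction. Their counts stand beside 2.01% of all genes called higher and 0.684% called lower. Epicardial markers (2 of 12 called lower, none with a difference above 0, brightest Krt18) summed to 5394, 5592, 6583 and 5264 in ITGA6-low cells and 2863, 2480, 4115 and 3391 in ITGA6-high cells. Their lower calls became 1 without ITGA6-low sample 2 or ITGA6-high sample 3 and 4 without ITGA6-high samples 6 and 8. Of 16 fibroblast and mesenchymal markers none passed the limma test and 3 had a difference above 0. Their sum was 24674, 14819, 21220 and 16207 against 12002, 6886, 12690 and 11601, with Col1a2 brightest and Sox9 and Dpt at background. Smooth muscle and pericyte markers (2 of 12 called higher and 1 lower, brightest Acta2, Myh11 at background) summed to 65348 ± 2734 and 53517 ± 5355 (SD, n = 4). Acta2 alone gave means of 42631 and 24285 and did not pass the limma test (adjusted p = 0.058). Of the 12 members, 9 had a difference above 0, with a median of 0.40, so the sum ran against most of the list. Of 20 neural crest, Schwann and neuronal markers 3 were called higher and 9, Sox10 and S100b among them, were at background. Their summed signal was 235, 264, 219 and 195 on the ITGA6-low arrays and 330, 335, 307 and 324 on the ITGA6-high arrays. With dim signals raised to a floor 1 was called higher, and under normexp none. The 16 pan-cardiomyocyte markers were all well above background, 1 was called higher (Myh6, not called when scaled to the 75th percentile) and none lower, and their sum was 631425 ± 22737 and 808017 ± 25708 (SD, n = 4). In sorted bulk samples, more cells of a type and more RNA per cell cannot be told apart.

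**Figure D2:**
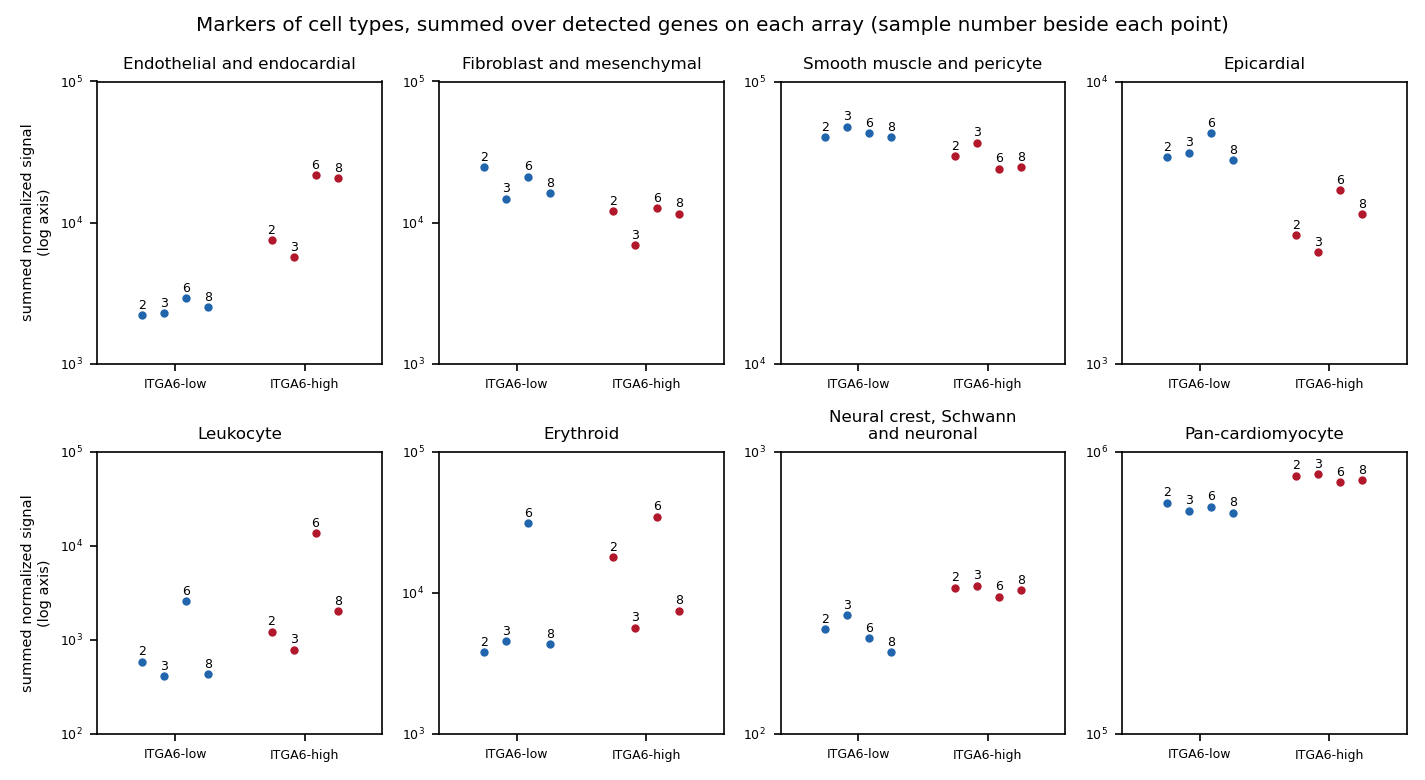
Summed normalized signal (log axis) of the detected markers of 8 cell types on each of the 8 arrays, with the sample number beside each point. Endothelial sums of ITGA6-high samples 6 and 8, 21612 and 20633, lie above 7518 and 5725 of samples 2 and 3, and above all ITGA6-low arrays.

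This order of the ITGA6-high arrays was used, after it was seen, to describe the called genes. It is called the endothelial order below, after the list in which it was seen. The leukocyte sums of the ITGA6-high arrays (1225, 785, 13557 and 2032) also had it, so the name does not give a cell source. Of 407 genes called higher and well above background on all ITGA6-high arrays, 102 (25.1%) had samples 6 and 8 both above samples 2 and 3 with at least a 2-fold range, against 300 of 11909 detected genes that were not called (2.52%). The same order and range were shown by 23 of 142 genes called lower and above background on all ITGA6-low arrays (16.2%). Without the limit on the range, the order was shown by 135 of the 407, 44 of the 142 and 1749 of the 11909 genes. When ITGA6-high samples 6 and 8 were left out, 328 of the 486 genes called higher and 138 of the 165 called lower were called again. All 651 kept their direction, which was fixed in advance for those whose groups did not overlap. Of the 14 called endothelial markers, 10 were called again, so that a call kept without samples 6 and 8 does not set a gene apart from endothelial ones. Genes called higher in the families below that share the order are given as such where they are described, and of the genes called lower Hey2, Prdm16, Wif1, Aldh1a1, Fgf9, Grik3 and Ppargc1b had it too. The part of endothelial cells or leukocytes in their difference was not tested. Each count of members is to be read against all genes, of which 2.01% were called higher and 0.684% lower, and 7.38% and 5.66% passed at any fold. Members named beyond the naming rule, to complete a count, were chosen after their values were seen.

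**Figure D3:**
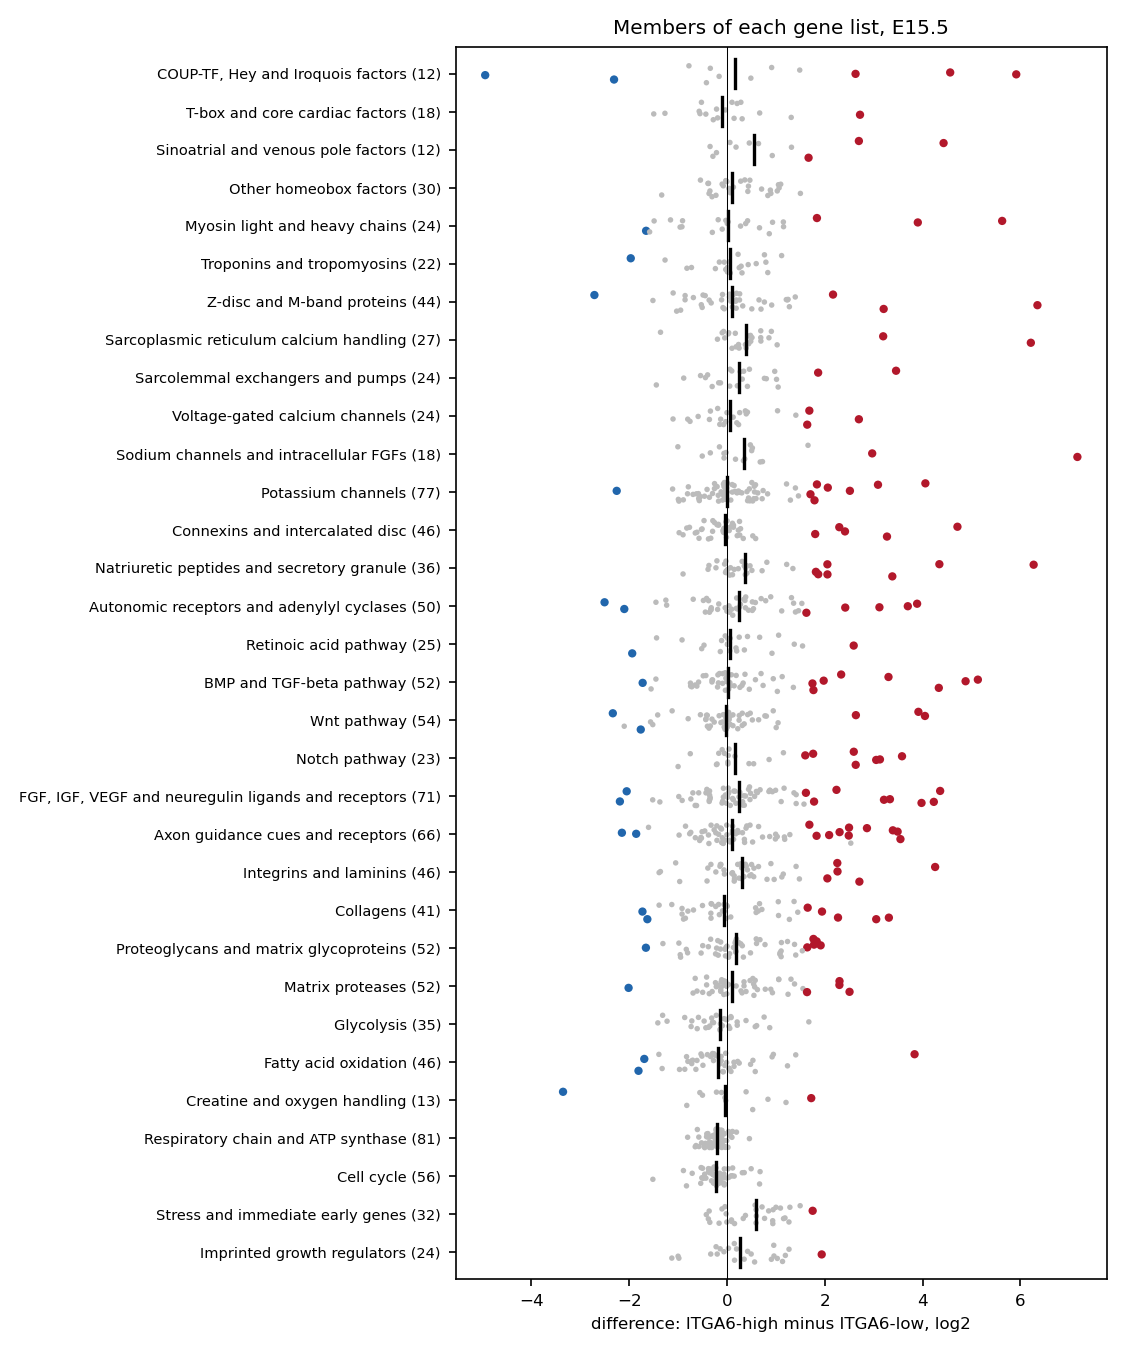
Difference between ITGA6-high and ITGA6-low CMs (horizontal axis, log2) for each member of 32 gene lists, with the number of members in parentheses. Red and blue points are genes called higher and lower, grey points are not called, and the black bar is the median of the list, which is 0.59 for stress and immediate early genes and -0.21 for the respiratory chain.

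Among transcription factors, the COUP-TF genes Nr2f1 and Nr2f2 were both called higher. Nr2f1, which encodes COUP-TFI, gave 138, 103, 74 and 70.8 in ITGA6-low and 6009, 5980.3, 5242 and 5272 in ITGA6-high cells, a 60.4-fold difference (log2 5.92 ± 0.32, adjusted p = 1.32e-07), while the third family member Nr2f6 was slightly lower (1.27-fold, adjusted p = 4.35e-04). The Hairy-related repressors divided between the sorts. Hey1 rose from 69.9, 74.8, 83.7 and 71.1 to 449, 484, 428 and 490.5 (6.19-fold, adjusted p = 2.68e-08), opposite to Hey2. Of 6 Iroquois factors, Irx4 alone was called, Irx1 was lower at any fold (log2 -0.78 ± 0.21), and Irx3 (log2 0.91 ± 0.21) and Irx5 (at least 2.06-fold) were higher. Among 7 T-box factors, Tbx5 was called higher, Tbx2 (log2 1.31 ± 0.26) and Tbx3 (log2 0.67 ± 0.12), repressors of the chamber program in the conduction system, were higher at any fold, and Tbx18, a factor of the epicardium and the venous pole and 1 of the epicardial markers, was 2.83-fold lower. Of the general cardiac factors, 11 GATA, MEF2, HAND and homeobox genes, none was called. At any fold 3 (27.3%) were lower, Gata4 by 1.48-fold, and none was higher, against 5.66% and 7.38% of all genes.

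Of 12 sinoatrial and venous pole genes, 3 were called higher and none lower, against 2.01% and 0.684% of all genes. At any fold 6 were higher and none lower, against 7.38% and 5.66%. Vsnl1, a neuronal calcium sensor, was not well above background in ITGA6-low cells and reached 188, 146, 142 and 134 in ITGA6-high cells (at least 9.27-fold, adjusted p = 2.37e-06). The calcium channel subunit Cacna2d2 is described with the channels below, and Shox2, a homeobox repressor of Nkx2-5 in the sinoatrial node, was well above background on only 1 ITGA6-high array. None of 30 other homeobox genes was called with limma (6 passed at any fold), and Meis2 was 2.52-fold lower in ITGA6-high cells. The zinc finger factor Prdm16, a regulator of compact ventricular myocardium, fell from 249, 252, 276 and 274 to 14.2, 20.4, 29.7 and 40.3 (10.8-fold, adjusted p = 3.84e-06).

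For 3 genes that were higher in ITGA6-high cells, the promoters are printed because they hold short DNA words that cardiac T-box and GATA factors are known to bind, and were chosen once the matches were seen. The windows run from 250 bases before to 50 bases after the transcription start, from RefSeq on GRCm38.p6, all on the plus strand, 5′ to 3′. For Nppa and Kcnj3 capitals mark AGGTGT, a T-box half-site read on either strand and found in 13.7% of 32851 promoter windows. For Bmp10 they mark AGATAA, which is the word of the GATA factors, read on either strand and found in 11.2% of windows. Nppa lies at chr4:148000472-148000771, Kcnj3 at chr2:55435720-55436019 and Bmp10 at chr6:87428744-87429043.
Nppa: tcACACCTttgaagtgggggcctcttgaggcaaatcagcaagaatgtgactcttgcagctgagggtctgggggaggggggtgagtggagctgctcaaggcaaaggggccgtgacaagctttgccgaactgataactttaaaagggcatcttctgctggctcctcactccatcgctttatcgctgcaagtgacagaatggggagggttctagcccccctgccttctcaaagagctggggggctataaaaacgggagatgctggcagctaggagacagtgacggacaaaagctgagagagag
Kcnj3: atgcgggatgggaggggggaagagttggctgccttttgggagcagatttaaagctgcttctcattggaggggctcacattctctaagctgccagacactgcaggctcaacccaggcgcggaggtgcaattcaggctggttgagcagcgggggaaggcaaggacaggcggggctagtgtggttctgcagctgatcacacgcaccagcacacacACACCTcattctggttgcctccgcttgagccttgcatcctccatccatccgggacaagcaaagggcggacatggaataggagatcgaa
Bmp10: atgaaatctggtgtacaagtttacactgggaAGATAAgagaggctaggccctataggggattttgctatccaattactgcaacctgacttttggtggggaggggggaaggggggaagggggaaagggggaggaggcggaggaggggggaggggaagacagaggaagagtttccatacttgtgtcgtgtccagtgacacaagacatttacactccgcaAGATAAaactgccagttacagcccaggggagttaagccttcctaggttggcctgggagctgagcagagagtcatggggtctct
The T-box word starts 248 bases before the start of Nppa and 38 bases before that of Kcnj3, and the GATA word starts 219 and 33 bases before that of Bmp10. Among the called genes, 12.7% of 466 windows of 354 genes called higher and 14.1% of 149 windows of 117 genes called lower held the T-box word, against 13.7% of all windows. The nuclear receptor half-site AGGTCA (either strand, in 16.3% of all windows) was in 12.7% and 16.8%, and the GATA word in 9.23% and 7.38%. AGGTCA shares its first letters with AGGTGT, and neither holds the other. A match is a description of letters and not a bound site.

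In the sarcomere, the sorts differed most in myosin light chains and myosin-binding proteins. Myl1, a light chain of fast skeletal and embryonic muscle, gave 351, 353, 389.9 and 313 in ITGA6-low and 16361, 18192, 17127 and 17793 in ITGA6-high cells (49.5-fold, log2 5.63 ± 0.35, adjusted p = 3.37e-07). Mybphl, a myosin-binding protein H-like gene, rose from 50.4, 61.3, 41.2 and 34.5 to 3907, 3641, 3531 and 3869.7 (81.6-fold, log2 6.35 ± 0.48, adjusted p = 1.84e-06). Both were nearly level across the 4 arrays of ITGA6-high cells. Of 24 myosin genes, 3 were called higher (Myl1, Myl7 and Myh6) and 1 lower (Myh7), against 2.01% and 0.684% of all genes. Myh7 was not called without ITGA6-high sample 2, and the lower calls became 2 without ITGA6-low sample 6 or 8 and 3 without ITGA6-high sample 8. Scaled to the 75th percentile, 2 were called higher and 3 lower, and Myh6 was not called (log2 1.33). At any fold 7 were higher and 6 lower, and the lower ones included the ventricular light chains Myl2 (log2 -1.16 ± 0.15) and Myl3 (at least 2.81-fold, since all ITGA6-low arrays lay at the top of the scale) and the slow heavy chain Myh7b (log2 -1.58 ± 0.10).

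The M-band and myosin-binding list held 3 of 15 genes called higher and 1 lower, against 2.01% and 0.684% of all genes. With the Z-disc genes included (44 genes), the lower calls became 2 without ITGA6-high sample 8 and without samples 6 and 8, and 0 under normexp. Trim54, a microtubule-associated ubiquitin ligase of the sarcomere, rose from 48.2, 41.6, 67.2 and 68.6 to 565, 519, 445 and 512 (9.22-fold, adjusted p = 4.95e-08), and Mybph was not above background in ITGA6-low cells (at least 1.71-fold, adjusted p = 0.0326). This last call was lost with dim signals raised to a floor, within slide 2, with only the 8 E15.5 arrays fitted, without samples 6 and 8, and without any 1 of ITGA6-low samples 2 and 8 and ITGA6-high samples 2, 3 and 6. Mybpc1, the slow skeletal myosin-binding protein C, moved the other way, from 80.4, 64.9, 107 and 69.3 to 9.0, 15.9, 9.27 and 15.8 (6.55-fold lower). Of 9 troponins, Tnni2 (fast skeletal troponin I) was called, with 2805, 2430.4, 1762 and 2709.9 in ITGA6-low and 676, 656, 568 and 549.9 in ITGA6-high cells. None of 29 Z-disc genes was called. At any fold 6 of them were higher and 5 lower, among them Ankrd1 (log2 1.24 ± 0.14) and Pdlim1 (log2 -1.52 ± 0.12).

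The sarcoplasmic reticulum, the store from which CMs release calcium for each beat, had positive differences for 22 of its 27 genes. Of these, 10 (37.0%) were higher at any fold and 1 lower, against 7.38% and 5.66% of all genes and 12.9% and 10.2% of genes above background, with a median difference of 0.39 against -0.02 over all genes. The count of higher genes was 6 when each array was scaled to its 75th percentile and also 6 without samples 6 and 8, and the median stayed above 0 in both. Ryr3, a release channel mostly known from smooth muscle and brain, gave 90.6, 104, 64 and 71.9 against 917, 787, 606 and 695 (9.16-fold, log2 3.19 ± 0.28, adjusted p = 6.57e-06). The pump Atp2a2 was higher (log2 0.69 ± 0.12), sarcolipin (Sln), an inhibitor of that pump in atria, was 74.3-fold higher, and phospholamban (Pln), its counterpart in ventricles, was lower (log2 -1.36 ± 0.19).

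Genes of membrane excitability formed the next group. Fgf12, which encodes an intracellular partner of sodium channels and is not secreted, was below background in ITGA6-low cells and gave 1150.5, 1139, 1012 and 971 in ITGA6-high cells (at least 65.4-fold, adjusted p = 8.81e-07). Scn10a, the pore of the Nav1.8 sodium channel, rose from 110.0, 65.5, 81.5 and 69.4 to 729.6, 602, 589 and 593 (7.84-fold, log2 2.97 ± 0.25, adjusted p = 5.02e-06). These were the 2 genes called among 18 sodium channel and intracellular FGF genes (11.1%, against 2.01% of all genes called higher).

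Of 77 potassium channel genes, 7 (9.09%) were called higher and 1 (1.30%) lower, against 2.01% and 0.684% of all genes, and all 8 were called again without samples 6 and 8. Without ITGA6-high sample 2, 2 were called lower, and under normexp background correction 3 were called higher. Kcnj3 and Kcnj5 encode the 2 subunits of the acetylcholine-activated channel that slows the atria. Kcnj3 gave 12.6, 24.1, 6.14 and 6.27 against 150.2, 201, 177 and 169 (16.7-fold, adjusted p = 1.33e-05) and Kcnj5 was 3.27-fold higher (adjusted p = 3.37e-07). The ATP-sensitive channel subunits Kcnj8 (3.46-fold, called, and also 1 of the pericyte markers) and Abcc8 (2.64-fold, not called) were higher as well. Kcnmb4, an accessory subunit of the calcium-activated BK channel, rose from 75.5, 41.6, 50.9 and 51.8 to 541, 410.1, 387 and 505 (8.51-fold, adjusted p = 3.64e-05), and Dpp6, an accessory subunit of Kv4 channels, was 5.71-fold higher. The single gene called lower was Kcnj4, an inward rectifier that holds the resting potential, with 590.2, 583, 811 and 669.5 in ITGA6-low and 89.8, 146, 164 and 167 in ITGA6-high cells. Kcnq1, the pore of the slow delayed rectifier, was 1.99-fold lower at any fold.

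Of 24 voltage-gated calcium channel genes, 3 (12.5%, against 2.01% of all genes) were called higher and none lower. The 3 became 1 without ITGA6-low sample 6, with dim signals raised to a floor, under normexp and within slide 1. The auxiliary subunit Cacna2d2 rose from 549, 529, 437 and 336 to 3327, 2870.3, 2925 and 2704 (6.49-fold, log2 2.70 ± 0.25, adjusted p = 1.19e-05). Cacna1d, the Cav1.3 pore of atrial and pacemaker cells, was not above background in ITGA6-low cells by the probe read (at least 2.22-fold higher, a call lost without ITGA6-low sample 6 or ITGA6-high sample 2 and with the slide as a block). A second Cacna1d probe, above background on 2 ITGA6-low and 4 ITGA6-high arrays, was 1.56-fold higher and not called (adjusted p = 0.513). Cacna2d3 passed on 2 detected arrays of ITGA6-high cells only. Among exchangers and pumps, Slc24a4, a potassium-dependent sodium-calcium exchanger, was at least 5.34-fold higher (adjusted p = 2.77e-04), and Fxyd5, called 3.64-fold higher, had the endothelial order of the arrays (88.6, 63, 351 and 197) and was not called without samples 6 and 8, nor without any 1 of ITGA6-low samples 2, 3 and 8 and ITGA6-high samples 6 and 8. Grik3, a kainate-type glutamate receptor, was among the largest differences in the other direction: it gave 316, 261, 295 and 318 in ITGA6-low cells and was not above background on any ITGA6-high array (at least 23.7-fold lower, adjusted p = 3.70e-07).

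**Figure D4:**
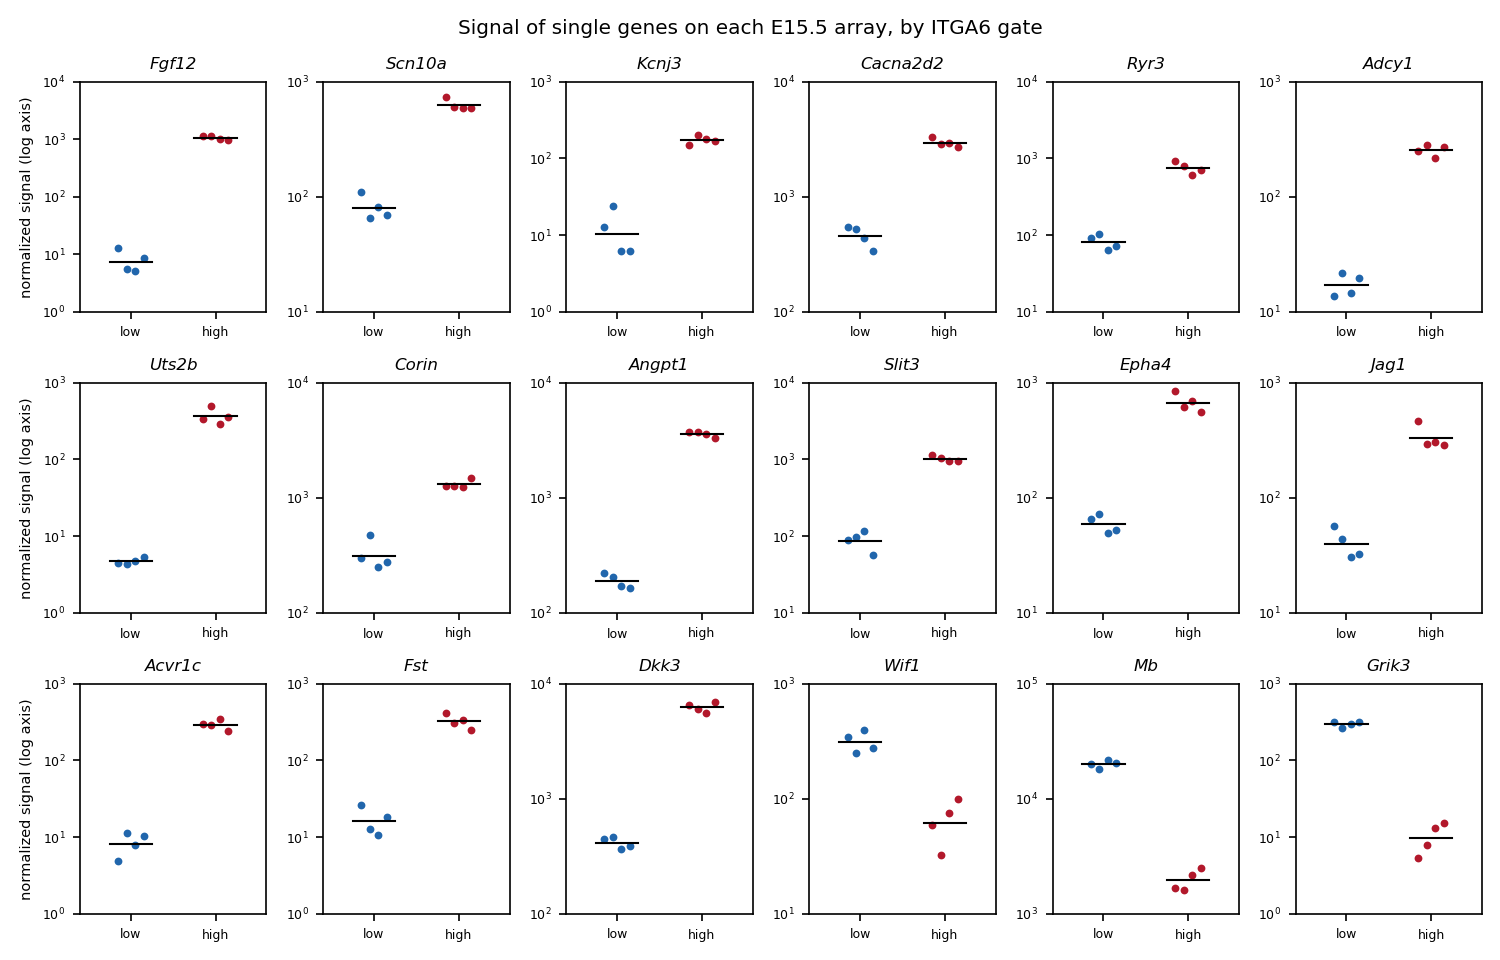
Normalized signal (log axis) of 18 genes on each E15.5 array, by ITGA6-low and ITGA6-high gate, with a bar at the mean of the log2 values. For each of the 18 genes the 4 arrays of one gate lie clear of the 4 arrays of the other, which the rule for naming called genes required. Mb, for example, falls from 18104 or more to 2485 or less. Over all genes, 11.5% were higher and 12.2% lower with no overlap.

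Of 22 connexin and pannexin genes, 4 (18.2%) were called higher and none lower, against 2.01% and 0.684% of all genes. Besides Gja5, these were Panx2 (36.2, 32.3, 47.3 and 33 against 145, 141, 109 and 122, 3.49-fold), Gjd3 (at least 2.69-fold) and Gja4, a vascular connexin that followed the endothelial order (95.1, 60.1, 178 and 129) and was lost without samples 6 and 8. Of 24 adherens junction and desmosome genes, 1 was called higher, the endothelial cadherin Cdh5 described above, and none lower. At any fold 2 (8.33%) were higher and 5 (20.8%) lower, against 7.38% and 5.66% of all genes, and 9 differences were above 0. The lower genes included Cdh2 (1.49-fold), Popdc3 (log2 -0.98 ± 0.08), Bves (log2 -0.90 ± 0.14) and Pkp2 (log2 -0.38 ± 0.06).

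Of 36 natriuretic peptide and secretory granule genes, 7 (19.4%) were called higher, against 2.01% of all genes. At any fold 11 were higher, against 7.38% of all genes, and none was lower at either threshold. Nppa itself gave 10051, 8164, 14057 and 14372 and 220436, 226948, 226948 and 248520.0, and the brightest probes of these arrays end at 323858, so its difference is read near the top of the scale. Corin, the protease that activates the natriuretic factor, rose from 298, 475, 252 and 276 to 1266, 1255, 1237 and 1486 (4.15-fold, log2 2.05 ± 0.18, adjusted p = 5.57e-06). Pam, which amidates peptides and is abundant in atrial granules, rose from 1344, 783, 1117 and 1000.1 to 4461, 2697, 4165 and 4142 (3.65-fold, adjusted p = 1.24e-04). Uts2b, a vasoactive peptide of the urotensin family, showed the smallest adjusted p of the genes named (1.07e-10), with at most 5.29 on ITGA6-low arrays and 337, 496, 292 and 354 on ITGA6-high arrays (at least 22.3-fold). Adrenomedullin (Adm) was 3.53-fold higher and Nppb was higher at any fold (log2 1.22 ± 0.24), while Chga and Syt1 were called from 3 detected ITGA6-high arrays each.

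Of 50 genes of autonomic signalling, 5 were called higher (10.0%) and 2 lower (4.0%), against 2.01% and 0.684% of all genes. At any fold 13 were higher (26.0%) and 4 lower (8.0%), against 12.9% and 10.2% of genes above background. Adcy1, a calmodulin-stimulated adenylyl cyclase, gave 13.8, 21.6, 14.6 and 19.7 in ITGA6-low and 249, 282, 217 and 272 in ITGA6-high cells (14.8-fold, log2 3.89 ± 0.17, adjusted p = 2.13e-08). Npy1r, a receptor for the sympathetic co-transmitter neuropeptide Y, rose from 18.9, 3.92, 40.6 and 12 to 387, 404, 399 and 325 (27.4-fold, adjusted p = 1.16e-04). The muscarinic receptor Chrm2 (log2 1.12 ± 0.19) and the adenosine receptor Adora1 (log2 0.89 ± 0.14), both coupled to the Kcnj3 channel in the atria, were higher at any fold, as was Pde4a (log2 1.40 ± 0.09). Adcy4 and Pde2a were 8.68-fold and 13-fold higher with the endothelial order of arrays, Pde2a at 1227, 906, 2032 and 2132, and both were called again without samples 6 and 8. The enzymes of catecholamine synthesis parted: Ddc fell from 8096, 5845, 6286 and 6994 to 1734, 1206, 1403 and 2092 (4.29-fold lower, adjusted p = 1.18e-05) and Dbh was 3.08-fold higher.

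In the BMP and TGF-beta pathway, 8 of 52 genes (15.4%) were called higher and 1 (1.92%) lower, against 2.01% and 0.684% of all genes. Among the ligands, Bmp10, a trabecular and atrial growth factor, was below background in ITGA6-low cells and gave 143, 185, 178 and 159 in ITGA6-high cells (at least 10.2-fold, adjusted p = 3.29e-05). The receptor Acvr1c (ALK7), which binds Nodal and activins, behaved alike, with at most 11.5 against 293, 285, 343 and 244 (at least 17.7-fold, adjusted p = 3.92e-07). Fst, an extracellular inhibitor of activins, rose from 26.3, 12.8, 10.7 and 18.2 to 411, 310.0, 339 and 250.0 (20.1-fold, adjusted p = 4.44e-06), and the inhibitor Bmper was 3.41-fold higher. The endothelial co-receptor Eng (9.87-fold, 196, 146, 615 and 439.9 on ITGA6-high arrays) and Tgfb1 carried the endothelial order. Bmp2 was called higher and Inhba lower, and the calls of Tgfb1, Bmp2 and Inhba were lost without samples 6 and 8. The lower calls became 0 without ITGA6-high sample 3 and 2 without ITGA6-low sample 6 or 8 or ITGA6-high sample 8.

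Of 54 Wnt pathway genes, 3 (5.56%) were called higher and 2 (3.70%) lower, against 2.01% and 0.684% of all genes, all 5 of them among receptors and inhibitors and none among 21 ligands. The 2 lower calls became 4 without ITGA6-low sample 8, without ITGA6-high sample 3, and without ITGA6-high samples 6 and 8. Dkk3, a secreted Dickkopf-related protein, rose from 445, 464, 369 and 388 to 6539.7, 6055, 5584 and 6932 (15.1-fold, log2 3.92 ± 0.35, adjusted p = 6.97e-06). Sfrp5, a secreted frizzled-related inhibitor and marker of venous pole progenitors, rose from 36.5, 17.7, 24.8 and 21.5 to 464, 353, 348 and 453 (16.6-fold, adjusted p = 3.65e-05). The Wnt inhibitory factor Wif1 went from 343, 248, 394 and 277 to 59.1, 32.5, 75.7 and 98.6 (5.05-fold lower) and the receptor Ror1 was 3.40-fold lower, a call lost without ITGA6-high sample 2, within either slide, with dim signals raised to a floor and under normexp.

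In the Notch pathway, 7 of 23 genes (30.4%, against 2.01% of all genes) were called higher and none lower. Of the 7, 3 were called again without samples 6 and 8. With dim signals raised to a floor 4 were called, and under normexp 1. The ligand Jag1 was highest in sample 2, at 57.4, 44.2, 30.6 and 32.4 against 461, 295, 302 and 289.6 (8.29-fold, adjusted p = 5.11e-07), and Jag2 gave 25.2, 16.8, 23 and 8.39 against 98.8, 109, 82.6 and 135 (6.20-fold). Notch4, an endothelial receptor, and the modifying enzyme Mfng had the endothelial order, with 49, 34.4, 158 and 153 and 65.8, 58, 369.6 and 379. Both were lost without samples 6 and 8, as were Dll1 and Dll4, which had the same order and were above background on at most 2 ITGA6-high arrays.

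Of 71 genes for FGF, IGF, VEGF, angiopoietin and neuregulin ligands and receptors, 8 (11.3%) were called higher and 2 (2.82%) lower, against 2.01% and 0.684% of all genes. Without samples 6 and 8, 5 of the 8 were called again. The 2 angiopoietins, ligands of the endothelial receptor TIE2, were even across the ITGA6-high arrays. Angpt1 gave 221, 207, 173 and 166 in ITGA6-low and 3719.8, 3715, 3586 and 3269.8 in ITGA6-high cells (18.8-fold, log2 4.23 ± 0.15, adjusted p = 2.41e-09), and Angpt2 was at background in ITGA6-low cells and 87.9, 75.3, 71.9 and 78.7 in ITGA6-high cells (at least 4.80-fold). The highest ITGA6-high array exceeded the lowest by 1.14-fold for Angpt1 and 1.22-fold for Angpt2, against 5.60-fold for the VEGF receptor Flt1 (195, 145, 809 and 692), which was 20.5-fold higher. Nrp2 and Pdgfb shared the order of Flt1 and were lost without samples 6 and 8, as was the angiopoietin-like Angptl4. Fgf7, a growth factor usually made by mesenchyme, rose from 29.8, 14.6, 18.9 and 18.8 to 238, 299, 161 and 139.6 (10.1-fold), and Igfbp2 was 4.72-fold higher. The 2 lower genes were Fgf9 (4.15-fold), an epicardial and endocardial signal to the ventricular wall, and Fgf6 (at least 3.04-fold).

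Of 66 genes first known from axon guidance, 10 (15.2%) were called higher and 2 (3.03%) lower, against 2.01% and 0.684% of all genes. Of the 10, 7 were called again without samples 6 and 8, and 5 or 4 were called with dim signals raised to a floor per array or in common. Slit3, a secreted guidance cue, gave 90.1, 96.1, 115 and 57.4 against 1128, 1039, 949 and 961 (11.7-fold, log2 3.55 ± 0.30, adjusted p = 5.11e-06), and Slit2 rose from 16.9, 22.1, 13 and 14.8 to 135, 183, 162 and 219 (10.5-fold, adjusted p = 2.72e-05). Their receptor Robo1 was called lower: it was above background on all ITGA6-low arrays and on no ITGA6-high array (at least 2.04-fold). The ephrin receptor Epha4 rose from 65.7, 72.7, 49.7 and 52.3 to 840.4, 615, 684 and 559 (11.2-fold, adjusted p = 8.01e-08). The slit, netrin and ephrin genes showed no endothelial order among their 4 calls, whereas 3 of the 6 called semaphorin and plexin genes did, with Plxnd1, an endothelial semaphorin receptor, at 1199, 936, 4009 and 3459 on the ITGA6-high arrays (7.27-fold).

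The gated integrin had company in the matrix and its receptors. Of 46 integrin and laminin genes, 5 (10.9%) were called higher and none lower, against 2.01% and 0.684% of all genes. At any fold 15 (32.6%) were higher and 3 (6.52%) lower, against 7.38% and 5.66% of all genes. The 15 became 7 without samples 6 and 8 of ITGA6-high, and 8 without ITGA6-low sample 2, ITGA6-low sample 8 or ITGA6-high sample 8. Apart from Itga6, whose own rise belongs to the gate, the called integrins were Itga10 (67.1, 46.8, 44.8 and 58.3 against 276, 294, 220.4 and 241, 4.79-fold) and Itga11 (16.6, 15.9, 9.47 and 19.5 against 123, 99.3, 88.8 and 82, 6.53-fold), both of which pair with beta 1 to bind collagen. Another collagen-binding chain, Itga1, was lower at any fold (log2 -1.39 ± 0.14). Laminins are the ligands of ITGA6 integrins. Lamb3 rose from 54.8, 42.8, 42.5 and 43.2 to 211, 219, 243 and 199 (4.78-fold, adjusted p = 4.24e-07) and Lama1 was 4.15-fold higher.

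Among 41 collagen genes, 5 (12.2%) were called higher and 2 (4.88%) lower, against 2.01% and 0.684% of all genes. With dim signals raised to a floor 1 was called higher, Col9a1 and Col23a1 being lost, and under normexp none. The count was 3 with the sample number as a block, without samples 6 and 8, and without sample 8 of either sort. Col9a1 (at least 2.33-fold) and Col9a2 (153, 169, 137 and 170.3 against 454, 553, 428 and 543), 2 chains of cartilage collagen IX, and the membrane collagen Col23a1 (at least 2.94-fold, with samples 6 and 8 highest) were higher, and Col2a1 was 3.09-fold lower, a call lost without samples 6 and 8. The 2 lower calls became 1 without ITGA6-low sample 2 or 3 or ITGA6-high sample 3 or 6. The fibrillar chains Col1a1 and Col1a2 gave lower values in ITGA6-high cells but did not pass (adjusted p = 0.102 and 0.105), as did the sum of fibroblast markers they belong to. Of 52 proteoglycan and glycoprotein genes, 5 were called higher and 1 lower, but 1 of the 5, Thbs4 (557, 481, 596 and 534 against 1849.6, 1823, 1808 and 2269, 3.57-fold), was called without samples 6 and 8. Another of the 5, Sparcl1, had the endothelial order. Without ITGA6-low sample 8 or ITGA6-high sample 6, 2 were called higher, and without ITGA6-low sample 6 or ITGA6-high sample 8, 3. The lower gene was Cspg4 (NG2), a pericyte proteoglycan, with 1825, 1627, 1789 and 1488 against 558, 525, 476 and 569.7 (3.16-fold).

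Of 52 matrix proteases and their inhibitors, 4 (7.69%) were called higher and 1 lower, against 2.01% and 0.684% of all genes. At any fold 15 (28.8%) were higher and 2 lower, against 7.38% and 5.66%. Adamts7 rose from 28.9, 21.7, 22.9 and 19.6 to 107, 116, 122 and 109 (4.92-fold, adjusted p = 2.09e-07) and the protease-like Adamtsl2 from 68.1, 46.8, 56.6 and 35.8 to 367, 254, 238 and 304 (5.68-fold). Its relative Adamtsl5 was 4.04-fold lower. Adam15 was 4.93-fold higher with the endothelial order (1219, 1074, 3198 and 2829). Timp2 (1.54-fold) and Timp3 (log2 1.31 ± 0.14), inhibitors of metalloproteases, and the protease Mmp14 (log2 1.38 ± 0.17) were higher at any fold.

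In energy metabolism, more genes passed as lower than as higher in ITGA6-high cells, with small differences in the respiratory chain. Of 81 nuclear-encoded subunits of the respiratory chain and ATP synthase, none was called by limma at 3-fold, 33 (40.7%) were lower at any fold and 1 was higher. Of the 2413 genes with the brightest signal, to which 78 of the 81 subunits belong, 0.746% were called higher, 0.29% were called lower and 12.8% were lower at any fold. The median of the list was -0.21 and 73 of 81 differences were below 0, against a median of -0.01 over those 2413 genes. Complex II had the lowest median (-0.53, with 3 of 4 subunits passing), followed by complex IV (-0.30, 9 of 16), complex III with cytochrome c (-0.23, 5 of 10), the ATP synthase (-0.22, 7 of 15) and complex I (-0.15, 9 of 36). Ndufs6, a subunit of complex I, fell from 67800.1, 63041, 69417 and 75177 to 42731, 44731, 43750.1 and 43902 (1.57-fold, log2 -0.65 ± 0.07, adjusted p = 3.27e-05). The one gene higher, Cox6a2, is the form of its subunit found in heart and skeletal muscle (log2 0.46 ± 0.10). Leaving out any 1 array left 24 to 31 of these genes lower, and leaving out samples 6 and 8 of ITGA6-high left 12. Within slide 1, 9 were lower, with a median of -0.22. The median was -0.25 within slide 2, which held 1 ITGA6-high array. Scaling to the 75th percentile moved the median of the list to -0.53. The medians of all genes and of the pan-cardiomyocyte markers also fell under it, both to -0.15.

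**Figure D5:**
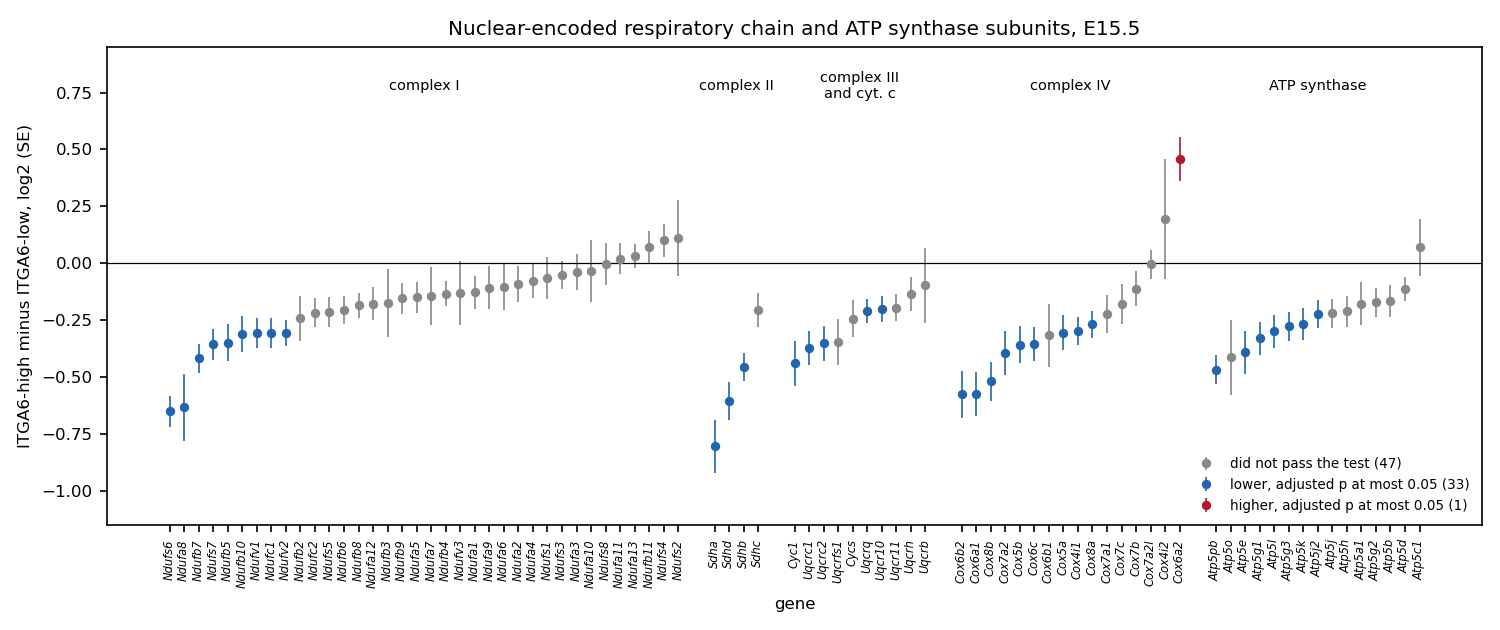
Difference between ITGA6-high and ITGA6-low CMs (log2, with SE) for 81 nuclear-encoded subunits, grouped by complex and ordered by value, blue and red where the adjusted p was at most 0.05. Most subunits lie between 0 and -0.65, Sdha is lowest at -0.81 and Cox6a2 highest at 0.46.

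Fuel supply was measured by 2 lists. Of 46 fatty acid oxidation genes, 15 (32.6%) were lower and 5 (10.9%) higher at any fold, against 5.66% and 7.38% of all genes and 10.2% and 12.9% of genes above background. The fatty acid carrier Fabp3 fell from 71319, 66129, 70630.3 and 65491 to 39457, 39348, 38887 and 39266 (1.74-fold, adjusted p = 8.16e-06), the acyl-CoA synthetase Acsl1 by 1.33 on the log2 scale, and both Ppara and Ppargc1a, regulators of this program, were lower (log2 -0.72 ± 0.09 and -0.70 ± 0.07). The 2 genes called lower were the lipid droplet protein Plin4 (165, 146, 296 and 213 against 64.9, 50.1, 74.1 and 57.8) and Ppargc1b (at least 2.78-fold). Without ITGA6-low sample 6, 1 was called. Ppargc1b lost its call with dim signals raised to a floor, and under normexp neither was called. The only gene called higher was Fabp4, an endothelial lipid carrier with the endothelial order (755, 352, 4076 and 4576). Of 35 glycolysis genes none was called, and 11 (31.4%) were lower and 4 (11.4%) higher at any fold, against the same shares, with Hk2 at 889, 1093, 871 and 923 against 333, 367, 345 and 366 (2.67-fold lower) and Pfkp 1.82-fold lower. Leaving out samples 6 and 8 left 15 lower fatty acid oxidation genes and 4 lower glycolysis genes. The 11 glycolysis genes became 6 without ITGA6-high sample 6, and 7 without ITGA6-low sample 3, ITGA6-low sample 8 or ITGA6-high sample 2.

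Myoglobin (Mb), which stores oxygen in muscle, was the brightest of the 12 genes with the largest decrease. It gave 19962, 18104, 21619 and 20595 in ITGA6-low and 1689, 1610.2, 2177 and 2485 in ITGA6-high cells (10.2-fold, log2 -3.35 ± 0.16, adjusted p = 4.33e-08). Creatine handling was mixed, with the creatine transporter Slc6a8 (log2 -0.82 ± 0.07), Ckm (log2 -0.50 ± 0.11) and Ckb (log2 -0.56 ± 0.13) lower and the mitochondrial creatine kinase Ckmt2 higher (log2 0.53 ± 0.13). Dio2, which activates thyroid hormone, fell from 197, 148, 178 and 164 to 19.7, 17.5, 22.4 and 25 (8.14-fold, adjusted p = 4.01e-07), and Upp1, a uridine phosphorylase, from 862, 1218, 1101 and 1049.9 to 65.9, 106, 112 and 104 (11-fold).

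Among 56 cell cycle genes 11 differences were above 0, with a median of -0.23. None was called by limma, and 3 (5.36%) were higher and 6 (10.7%) lower at any fold, against 12.9% and 10.2% of genes above background. Of 33 replication and mitosis genes 3 had a difference above 0, with a median of -0.26, and 3 passed as lower (Mcm7, Rrm1 and Rrm2). The proto-oncogene Mycn fell from 803, 734, 753 and 759.5 to 297, 259, 237 and 276 (2.86-fold, adjusted p = 2.77e-04), whereas Myc was higher (log2 0.68 ± 0.15). When only the 8 E15.5 arrays were fitted, 21 cell cycle genes were lower instead of 6, in a fit where 1898 of 24125 genes were lower at any fold.

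Stress and immediate early genes, which respond within minutes to handling of cells, were the next list. Of 32, 11 (34.4%) were higher and 1 lower at any fold in ITGA6-high cells, against 7.38% and 5.66% of all genes and 12.9% and 10.2% of genes above background, and the median was 0.59. With the sample number as a block 17 were higher, without samples 6 and 8 of ITGA6-high 5, and without ITGA6-low sample 3, 7. Atf3 was the 1 gene called (2 genes without ITGA6-low sample 6 or ITGA6-high sample 3), with 1740.2, 1327, 2029.6 and 2159 against 5526, 5564, 5894 and 7186 (3.37-fold, adjusted p = 6.00e-04). The phosphatase Dusp1 gave 483, 348, 440.2 and 473 against 959, 872, 1104 and 935 (2.23-fold), Ier3 was 1.80-fold higher, and Jun (log2 0.93 ± 0.13), Fos (log2 1.00 ± 0.26), Junb (log2 1.29 ± 0.30) and Ier2 (log2 1.19 ± 0.20) followed. The heat shock protein Hsp90aa1 was the lower one. The part of the sorting procedure in these values was not tested.

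Of 24 imprinted growth regulators, 8 (33.3%) were higher and 1 lower at any fold, against 7.38% and 5.66% of all genes and 12.9% and 10.2% of genes above background. Without samples 6 and 8, 5 were higher and none lower, and none was lower without ITGA6-low sample 3 or ITGA6-high sample 2. The paternally expressed gene Mest was called, rising from 4721, 5857, 4956 and 5405 to 17658, 20438, 19096 and 23106 (3.83-fold, adjusted p = 1.12e-04). Sgce (1.88-fold), Snrpn (2.20-fold), Ndn (log2 0.96 ± 0.20) and Peg3 (log2 1.03 ± 0.16), which are also paternally expressed, and the maternally expressed Igf2r (1.48-fold) were higher, and Grb10 was lower (log2 -1.13 ± 0.27). Peg10 passed but was at background on all 8 arrays. The retinoic acid list, by contrast, held 1 higher and 1 lower call among 25 genes. Without ITGA6-low sample 2 or 3 or ITGA6-high sample 2, 2 were called higher. Ttr, the blood carrier of thyroid hormone and of retinol-binding protein, was at least 2.22-fold higher. Its call was lost with dim signals raised to a floor and under normexp. The synthesis enzyme Aldh1a1 was lower (178, 171, 197 and 172 against 29.2, 41.2, 74 and 53.3, adjusted p = 0.0417). That call was lost under normexp, with the slide as a block, within slide 1, and without samples 6 and 8. It was also lost without any 1 of the 8 arrays except ITGA6-high sample 6.

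Several of the largest differences lay outside these families. Ap3b2, a neuronal vesicle coat protein, was at background in ITGA6-low cells and gave 533, 725, 551 and 539 in ITGA6-high cells (at least 35.7-fold, adjusted p = 3.78e-08). The kinase Camk1d rose from 34.3, 32.2, 24.7 and 19.3 to 1011, 995, 980.2 and 842 (35.4-fold, adjusted p = 1.38e-04). Caveolin 1 (Cav1), the coat protein of caveolae and also abundant in endothelium, rose from 22.1, 15.7, 19.8 and 4.35 to 439.6, 445, 498 and 474 (35.2-fold). The part of endothelial cells in the difference of Cav1 was not tested. Naaladl2 and Gsg1 were 31.9-fold and 31.1-fold higher. Vwf, the von Willebrand factor of endothelium, was 27-fold higher with the endothelial order (269, 128, 787 and 588).

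In the other direction, Bpifa1, a secreted airway protein, fell from 105, 168, 149 and 68.4 to 11.6, 3.42, 3.29 and 3.43 and was above background on 1 ITGA6-high array. Ush1c, a scaffold protein of hair cells, fell from 491, 324, 818 and 344 to 48, 32.7, 49.7 and 36.4 (11.2-fold, adjusted p = 2.33e-06). The water and glycerol channel Aqp3 was 9.04-fold lower, Slc35f1 at least 8.85-fold lower, Rnf182, a ubiquitin ligase, 8.18-fold lower, and Rhd, the Rh blood group antigen, 7.75-fold lower at 99.5, 82.4, 115 and 103 against 6.69, 19.6, 14.8 and 13.9. The direction of Rhd was opposite to that of the summed erythroid markers.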

How the data were processed

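RNA of 16 sorts was measured on Agilent 1-colour 60K mouse arrays (60-mer probes, scanned with Feature Extraction 10.7.3.1), and the 8 arrays of E15.5 are described here. The deposited series table holds log2 signals, which the authors had quantile-normalized, and reading it against the scanner files showed the deposited processed intensities after quantile normalization (largest difference on these arrays 0.87 on the log2 scale). These values were used unchanged, and 3 missing values of the 8 arrays were left out of their fits. The deposited scanner intensities served for the alternatives, and the flag for signal well above background for detection. Control spots were left out and spots of a probe averaged, which left 55681 probes, of which 33256 carried a gene by RefSeq accession or the file's symbol and 22425 none.

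With limma 3.58.1 (R 4.3.3), group means were fitted to the 16 arrays together, with Benjamini-Hochberg adjustment over all probes (two-sided). A gene was read from 1 probe, preferably one with a RefSeq accession, then the brightest. Bounds used the lowest signal well above background on each array. The number of arrays limits the precision. The p-values measure the spread within groups of 4 independent sorts of pooled hearts, taken over all 4 groups, P2 included. They come from a fit without the pairing, which was run as an alternative. The sample numbers paired the sorts, since deviations of same-numbered arrays correlated at 0.26, 0.19, 0.45 and 0.38 (samples 2, 3, 6 and 8). The 2 arrays of samples 2, 6 and 8 also shared a slide, and those of sample 3 did not, so number and slide are partly mixed.

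Named were the 5 marker genes, the 12 genes with the largest fold in each direction and up to 4 called genes of each of 40 lists, both among genes detected on all arrays of the brighter group with no overlap, or else the 2 detected members of a list with the smallest adjusted p, and the brightest member of each list whether or not its groups overlapped. The comparison, its members and the lists were chosen with earlier results of these data known, and support nothing by being chosen. Alternatives covered the values, scaling, background, floors, detection, block, slide, test, fold and arrays left out, and the fit was tested on simulated data. Values of some single genes of the lists are not reported here.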

Additional observations from a re-analysis of the deposited data

Results flagged for a closer look

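Within a group of 4 arrays, 1 array stood apart from the other 3 by Dixon's criterion for 25 of 318 tested groups of named genes, where chance gives about 1 in 20 (15.9). In ITGA6-low cells the array that stood apart was sample 2, as the highest, for Actc1 (298010) and Lamb3 (54.8). It was sample 3 for Ccnd3 (12801, highest), Meis2 (824, highest) and Atp5pb (10072, lowest). It was sample 6, as the highest, for Cdh5 (14.4), Col9a1 (4.44), Hba-a1 (17211) and Hbb-bt (12971), and sample 8 for Hcn2 (2800, highest), Myh7 (234625, lowest) and Myl7 (8701, lowest). In ITGA6-high cells it was sample 2 for Bpifa1 (11.6), Gata4 (1623), Jag1 (461) and Scn10a (729.6) as the highest and for Upp1 (65.9) as the lowest. It was sample 3 for Ap3b2 (725, highest), Col1a2 (2612, lowest) and Pam (2697, lowest), sample 6 for Actc1 (272331, lowest) and Myl4 (298010, highest), and sample 8 for Corin (1486, highest), Thbs4 (2269, highest) and Camk1d (842, lowest). Identical signals of bright genes, such as those of Actc1 and Myl4, come from quantile normalization, which gives every array the same set of values.

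The difference between the gates was not the one seen at P2 for 34 of 159 named genes, by a limma test of the difference of the 2 log2 fold changes at the same thresholds. The P2 cells had first been depleted of non-myocytes and were not gated on ERBB-2, so stage and preparation cannot be told apart. For the endothelial genes Cdh5, Icam2, Eng and Plxnd1 the E15.5 value exceeded the P2 value, by 4.08, 3.98, 2.71 and 3.80 on the log2 scale. It also did so for Sparcl1 (2.94), Rgs5 (2.33) and the smooth muscle actin Acta2 (1.96). Other endothelial genes tested, Flt1, Vwf, Egfl7, Cldn5, Fabp4 and Notch4, were not among the 34. Genes higher in ITGA6-high cells at E15.5 with a smaller or opposite P2 difference included Ap3b2 (3.85), Col9a1 (3.60), Slit2 (3.15), Col23a1 (3.11), Atf3 (2.23), Fst (2.14), Acvr1c (2.10) and Myh6 (1.93). Genes lower in ITGA6-high cells at E15.5 with an E15.5 value above that at P2 were Irx4 (3.26), Adamtsl5 (3.04), Myh7 (2.83), Ddc (2.43), Prdm16 (1.90) and Ush1c (1.67). The E15.5 minus P2 difference was -4.64 for Bpifa1, -3.54 for Tnni2, -3.18 for Aqp3, -2.56 for Lrrn4 and -2.08 for Mb. It was below 0 as well for H19 (-3.63), Mlana (-3.62), Myl4 (-3.30), Fbln1 (-2.83), Dkk3 (-2.26), Gja5 (-2.13), Ryr3 (-1.87) and Nr2f2 (-1.69).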

How the results depend on the processing

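No named gene that passed the test changed direction under any alternative run. The alternatives read the same arrays or some of them, so a kept direction is no separate support. Of the named genes that did not pass, Fstl1, Fxyd1, Hspb1, Rxrb, Ak1, Actc1, Hcn2 and Csf1r took the other sign in at least 1 alternative, with lowest and highest values of -0.02 and 0.23, -0.13 and 0.26, -0.18 and 0.20, -0.14 and 0.07, -0.29 and 0.0035, -0.24 and 0.04, -0.58 and 0.32, and -0.01 and 3.05. Background correction by normexp with an offset of 50, which compresses dim signals, left 164 probes called higher and 43 lower (144 and 34 genes). It lowered the higher calls from 3 to 1 for sinoatrial genes, 5 to 2 for connexin and disc genes, 7 to 4 for peptide genes, 5 to 2 for autonomic genes, 8 to 5 for BMP and TGF-beta genes, 8 to 4 for growth factor genes, 10 to 4 for axon guidance genes, 5 to 1 for integrins and laminins, 5 to 2 for proteoglycans and 4 to 1 for matrix proteases. Raising values to the lowest signal well above background on each array left 409 probes and 322 genes higher, and a common floor for all arrays, added after seeing the data, left 345 and 124 probes (274 and 99 genes). With a threshold of 2-fold, 1100 and 632 probes passed (807 and 380 genes). At any fold, 984 genes were higher and 669 lower within slide 1, 1128 and 520 within slide 2, 1170 and 784 without samples 6 and 8 of ITGA6-high, and 853 were lower without sample 6 of both sorts, fits with fewer arrays. The last 2 choices were made after seeing the data. Leaving out 1 array at a time gave 582 to 691 probes higher and 235 to 270 lower, 429 to 508 genes higher and 149 to 176 lower, and 1439 to 1627 and 1055 to 1187 genes at any fold. With the sample number as a replicate block, 674 and 243 probes were called (506 and 159 genes), and 1892 and 1515 genes passed at any fold. Of the named genes, Ncan lost its call under the block and no other did. Beyond the leukocyte, collagen and stress lists, the block moved the T-box genes higher at any fold from 3 to 5, potassium channel genes lower from 5 to 3, retinoic acid genes higher from 2 to 4, proteoglycan genes lower from 2 to 1, imprinted and smooth muscle genes lower from 1 to 2 each, and erythroid genes higher from 1 to 0. The 75th percentile scaling gave 683 and 253 probes and moved the median of all genes to -0.15, so that the medians of the myosin (-0.21), troponin and tropomyosin (-0.15), Z-disc and M-band (-0.03), calcium channel (-0.05), BMP and TGF-beta (-0.02) and pan-cardiomyocyte (-0.15) lists fell below 0, and the methods' analysis of variance with Tukey's test gave 663 and 256 probes. Of 110 called named genes, 59 kept their call under every alternative and 75 under every one but normexp, which lost 44 calls of named genes. Signal over background limits these: 219 of the 486 genes called higher and 40 of the 165 called lower were not well above background on any array of the dimmer group. Their folds are bounds only where all arrays of the brighter group were well above background.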
